A study of Mus musculus with 30 samples.

Results

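The comparison is between mouse marrow-derived mesenchymal stem cells (MSCs) transfected with siRNA against Arp4 and the same kind of cells that also received CK666, an inhibitor of the Arp2/3 complex, for 24 h. It rests on 6 of the 30 ATAC-seq libraries of the study, 3 labelled siRNA Arp4 and 3 labelled siRNA Arp4 plus CK666, taken by label. A further 3 libraries, siRNA control (siCTL, also labelled siRNA mock), were used to tell where a line stood before the knockdown. All 9 libraries came from 50000 male C57BL/6J MSCs each, prepared with the Omni-ATAC protocol, and no group received CK666 on top of control siRNA, so an effect of CK666 in transfected cells that keep Arp4 was not analysed here. The labels do not say whether replicates were separate transfections, and p-values therefore measure the spread between libraries, which may be technical.

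Actin moves between monomers and filaments in the nucleus as well as in the cytoplasm. The Arp2/3 complex starts new filaments as branches on the side of old ones, and CK666 holds it in its inactive form, so that fewer branched filaments are made. Arp4, also called ACTL6A or BAF53A, is an actin-related protein of the nucleus that pairs with monomeric actin inside chromatin remodelling complexes of the BAF and INO80 families and inside the TIP60 histone acetyltransferase complex. ATAC-seq counts the sites where the Tn5 transposase could cut, so a higher count over a region means that its DNA was more open to the enzyme or was open in more of the cells. In such bulk libraries a change in part of the cells cannot be told apart from a smaller change in all of them.

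The read counts of the 9 siRNA libraries do not follow the region names of their table. Over its 305931 lines their rank correlation with the 9 untransfected libraries of the same table lay between -0.003 and 0.0018, whereas the untransfected libraries correlated with each other at 0.752 to 0.872. The summed siRNA count had a rank correlation of -0.0004 with the length of the named region, against 0.277 for the summed untransfected count. Among themselves the siRNA libraries do match, since replicates of siRNA Arp4 correlated at 0.659 to 0.696 and those of siRNA Arp4 plus CK666 at 0.673 to 0.676. Each line was therefore treated as 1 region of unknown position, and a line is named here by its number in the table, with no gene, coordinate or sequence. Markers of MSCs and the Arp4 gene itself were for the same reason not analysed here. The siRNA Arp4 libraries held 8225924 to 10474823 counts, the siRNA Arp4 plus CK666 libraries 9869428 to 10219170 and the siCTL libraries 8904262 to 9810487.

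The 9 libraries fell into their labelled groups on the first principal components. PC1, with 92.8% of the variance of the 1000 most variable lines, placed the siCTL libraries between -44.9 and -41.6, the siRNA Arp4 libraries between 20.7 and 27.8, and the siRNA Arp4 plus CK666 libraries between 16.9 and 20.3. On PC2, with 4.19% of the variance, the siRNA Arp4 libraries lay at 7.38 to 7.86 and those with CK666 at -8.64 to -7.97, with no overlap. The group means of siRNA Arp4 with and without CK666 were 16.9 apart on the 2 components, while siRNA Arp4 lay 67.9 and siRNA Arp4 plus CK666 62.4 from siCTL. The largest spread of replicates around their group mean was 3.60 (SD, n = 3).

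**Figure D1:**
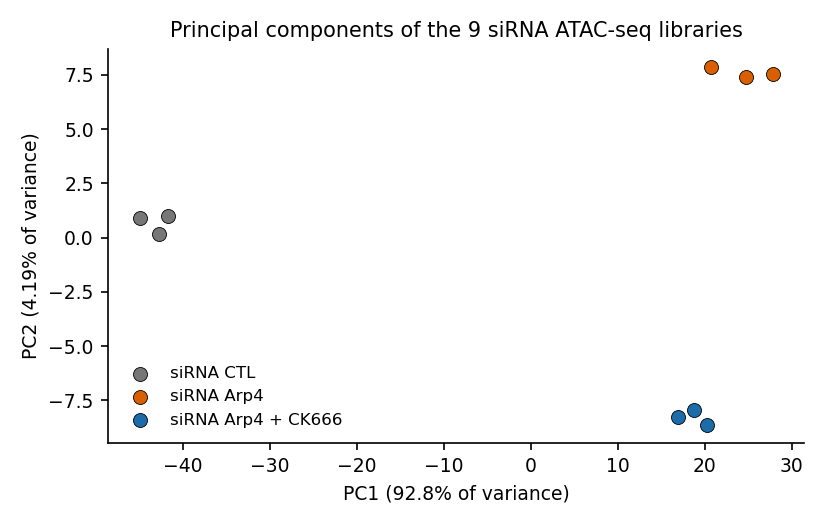
Scores of the 9 siRNA libraries on the first 2 principal components of variance-stabilized counts, 1 point per library, with axes of different scale. The siRNA Arp4 libraries with CK666 differ from those without it mainly on PC2, where they lie at -8.64 to -7.97 against 7.38 to 7.86.

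Few lines were called with CK666 on top of the Arp4 knockdown. Of 205173 lines with enough counts to be tested, 1118 (0.545%) were called in edgeR's quasi-likelihood test (adjusted p under 0.01, log2 fold change above 1 or below -1), 372 gains (0.181%) and 746 losses (0.364%) of accessibility. The knockdown itself, siRNA Arp4 against siCTL, gave 10434 gains (5.09%) and 3160 losses (1.54%) in the same fit. Against siCTL the cells with both treatments showed 8972 gains (4.37%) and 3177 losses (1.55%). These 3 comparisons share libraries in pairs, so their counts are given side by side and no test was made between them. An unadjusted p under 0.05 was reached by 24314 lines (11.9%) in the CK666 comparison, and without a limit on the fold change 875 gains and 2130 losses passed.

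Losses were 66.7% of the calls with CK666. This split moved with the scaling, to 493 gains and 606 losses (44.9% gains) when libraries were scaled by total counts and to 480 gains and 618 losses (43.7% gains) when a trend with the level of the line was removed. When only lines averaging 50 counts or more were tested, there were 295 losses and 294 gains. That setting also fitted the TMM scaling anew on the lines kept. In the main fit 499 losses and 214 gains had a mean of at least 50 normalized counts in the 6 libraries. That limit is on the 6 libraries, whereas the setting used the mean raw count over all 9, so these splits cover different sets of lines. Whether the limit or the new scaling evened the split was not tested. The number of gains fell whichever library was left out. It was 275, 277 and 234 without siRNA Arp4 replicate 1, 2 and 3. Without siRNA Arp4 plus CK666 replicate 1, 2 and 3 it was 214, 218 and 245, and without a siCTL library 320 to 326. Losses moved both ways, to 508, 623 and 884 without siRNA Arp4 replicate 1, 2 and 3. They numbered 720, 645 and 591 without siRNA Arp4 plus CK666 replicate 1, 2 and 3, and 804 to 846 without a siCTL library. Gains were 20.9% to 35.1% of the calls with a library left out. These fits had fewer libraries and, through the filter, tested more lines, 232301 to 242312. A lost call therefore need not mean that it depended on the library left out. In these same fits 94 of the 372 gains and 331 of the 746 losses were called again whichever of the 9 libraries was left out. In the opposite direction 0 were called. Scaling also moved the split of the other comparisons, where gains were 76.8% of the knockdown calls, 56.2% with total counts and 63.5% with the trend removed, and 73.8%, 59.0% and 60.3% of the calls for both treatments against siCTL.

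Most called changes were a little over the limit of 1 on the log2 scale. The gained lines had a median log2 fold change of 1.30, with quartiles of 1.11 and 1.63, and 41 of them (11.0%) passed 2. The lost lines had a median of -1.25, with quartiles of -1.48 and -1.11, and 39 of them (5.23%) passed -2. Over all tested lines the median was 0.03 and 5th and 95th percentiles were -0.87 and 1.07. All 372 gained lines had each CK666 library above each siRNA Arp4 library, which 8.27% of all tested lines did, and 742 of the 746 lost lines had each CK666 library below, which 8.67% did. The calls were made on these values, so this lack of overlap is a description of the called lines.

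**Figure D2:**
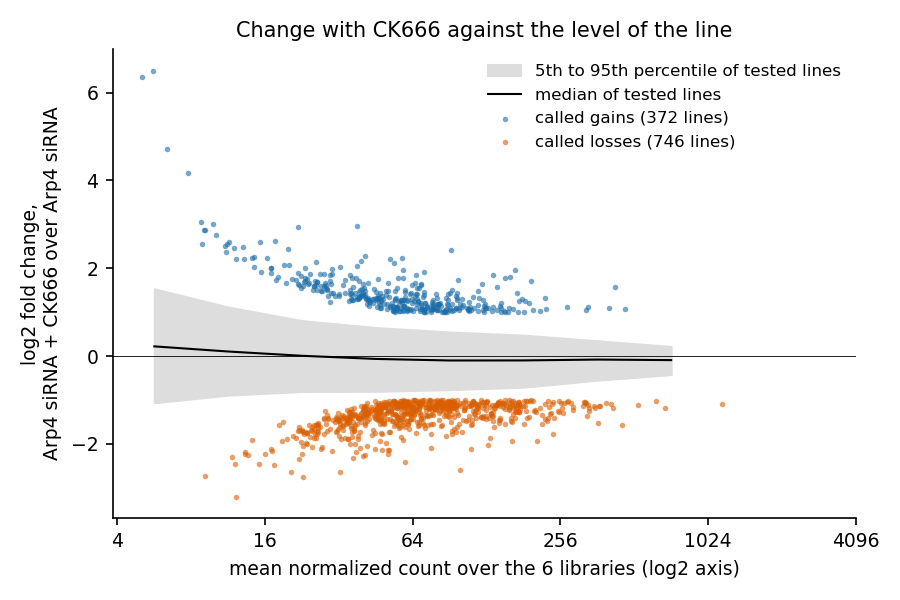
Log2 fold change with CK666 (vertical axis) against the mean normalized count of the line over the 6 libraries (horizontal axis, log2 scale), with called lines as points and the 5th to 95th percentile of all tested lines as a grey band. The 372 gains and 746 losses lie outside the band, and at low counts only larger changes were called.

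The lost and the gained lines differed in where siCTL stood. Counts here and in what follows are normalized to a common library size. In the 746 lost lines the median count was 94.0, 91.5 and 85.7 in the siRNA Arp4 libraries and 39.7, 38.9 and 38.2 in the siRNA Arp4 plus CK666 libraries. The siCTL libraries were at 36.4, 38.9 and 34.2 in these lines, next to the CK666 libraries. In the 372 gained lines the medians were 32.0, 31.8 and 30.6 with siRNA Arp4 and 78.3, 77.9 and 78.3 with CK666 added. Here the siCTL libraries, at 33.6, 35.8 and 33.3, stood next to siRNA Arp4 alone. The log2 fold change of siRNA Arp4 over siCTL had a median of 1.33 in the lost lines (quartiles 0.71 and 2.03) and of -0.21 in the gained lines (quartiles -0.85 and 0.28). That of both treatments over siCTL had a median of -0.01 in the lost lines (quartiles -0.64 and 0.72) and of 1.18 in the gained lines (quartiles 0.60 and 1.65), so single lost lines stood on both sides of siCTL. Since the siRNA Arp4 libraries chose the lost lines and also enter the knockdown change, a chance high count there raises the one and lowers the other, and these medians are given with no test.

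The largest loss among lines with a mean of at least 50 counts was line 188008. Its siRNA Arp4 libraries held 169, 198 and 148 counts and its siRNA Arp4 plus CK666 libraries 18.5, 35.0 and 31.5. The groups did not overlap, and the siCTL libraries, with 14.9, 31.6 and 42.4, covered the range of the CK666 libraries. The log2 fold change with CK666 was -2.59 ± 0.23 (SE, n = 3 and 3 libraries, edgeR adjusted p = 3.25e-17).

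Line 287460 showed the same order at a higher level. It held 349, 339 and 289 counts with siRNA Arp4, 83.4, 82.7 and 89.8 with CK666 added and 85.8, 86.3 and 90.1 in siCTL. The CK666 and siCTL ranges overlapped, and the siRNA Arp4 libraries lay far above both. Its log2 fold change was -1.93 ± 0.15 with CK666 and 1.90 on knockdown.

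In line 193361 the fall with CK666 stopped above siCTL. The counts were 267, 279 and 225 with siRNA Arp4, 65.9, 74.0 and 63.0 with CK666, and 38.2, 37.9 and 32.4 in siCTL, so that no library of any group reached into another group. The log2 fold change of both treatments over siCTL was 0.90, against 2.83 for the knockdown alone. Line 41641 was alike, with 62.0, 90.5 and 96.7 counts in siRNA Arp4, 18.5, 17.5 and 20.1 with CK666 and 7.46, 8.42 and 2.70 in siCTL.

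Line 10348 ended below siCTL. It held 80.2, 116 and 110.0 counts in siCTL, 191, 174 and 175 with siRNA Arp4 and 44.3, 42.8 and 38.2 with CK666, which put the CK666 libraries below both other groups. It was the only line of the 10 largest losses that was not a called gain on knockdown, where its log2 fold change was 0.82. The other 9 were called gains on knockdown, and over the 10 lines the knockdown log2 fold change ran from 0.82 to 3.74 and that with CK666 from -2.59 to -1.93.

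The largest gain at a mean of at least 50 counts was line 274634, with 147, 151 and 164 counts in the siRNA Arp4 plus CK666 libraries. The siRNA Arp4 libraries held 16.0, 41.8 and 28.2 and the siCTL libraries 42.0, 33.7 and 31.5. These latter groups overlapped, and the CK666 libraries stood alone above them. The log2 fold change with CK666 was 2.42 ± 0.23 (SE, edgeR adjusted p = 1.72e-15), and that of the knockdown was -0.32 (adjusted p = 0.522).

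Line 157498 had this pattern too, at 62.0, 73.6 and 69.8 counts with siRNA Arp4, 220.5, 335 and 243 with CK666 and 87.6, 82.1 and 83.8 in siCTL. The siCTL libraries lay slightly above the siRNA Arp4 libraries and far below those with CK666. Line 228646 held 68.0, 50.7 and 58.8 counts with siRNA Arp4, 204, 203 and 229 with CK666 and 67.1, 67.4 and 81.1 in siCTL.

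In line 104208 CK666 went past a knockdown loss. Its siCTL libraries held 171, 169 and 135 counts, its siRNA Arp4 libraries 80.0, 81.5 and 49.0 and its CK666 libraries 235, 245 and 263. The 3 groups did not overlap, and the log2 fold change was -1.15 on knockdown, 1.80 ± 0.16 (SE) with CK666 and 0.65 for both treatments over siCTL. Line 106272 held 52.2, 45.3 and 63.1 counts in siCTL, 24.0, 15.9 and 14.7 with siRNA Arp4 and 88.6, 109 and 57.3 with CK666, where the highest siCTL library was above the lowest CK666 library.

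Line 213652 rose at both steps. It held 11.2, 12.6 and 7.21 counts in siCTL, 29.0, 29.8 and 30.6 with siRNA Arp4 and 114, 116 and 106 with CK666. Its log2 fold change was 1.53 on knockdown and 1.91 ± 0.25 (SE) with CK666. Among the 10 largest gains 1 was a called gain on knockdown, 3 were called losses and 6 were not called, and their log2 fold change with CK666 ran from 1.80 to 2.42.

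**Figure D3:**
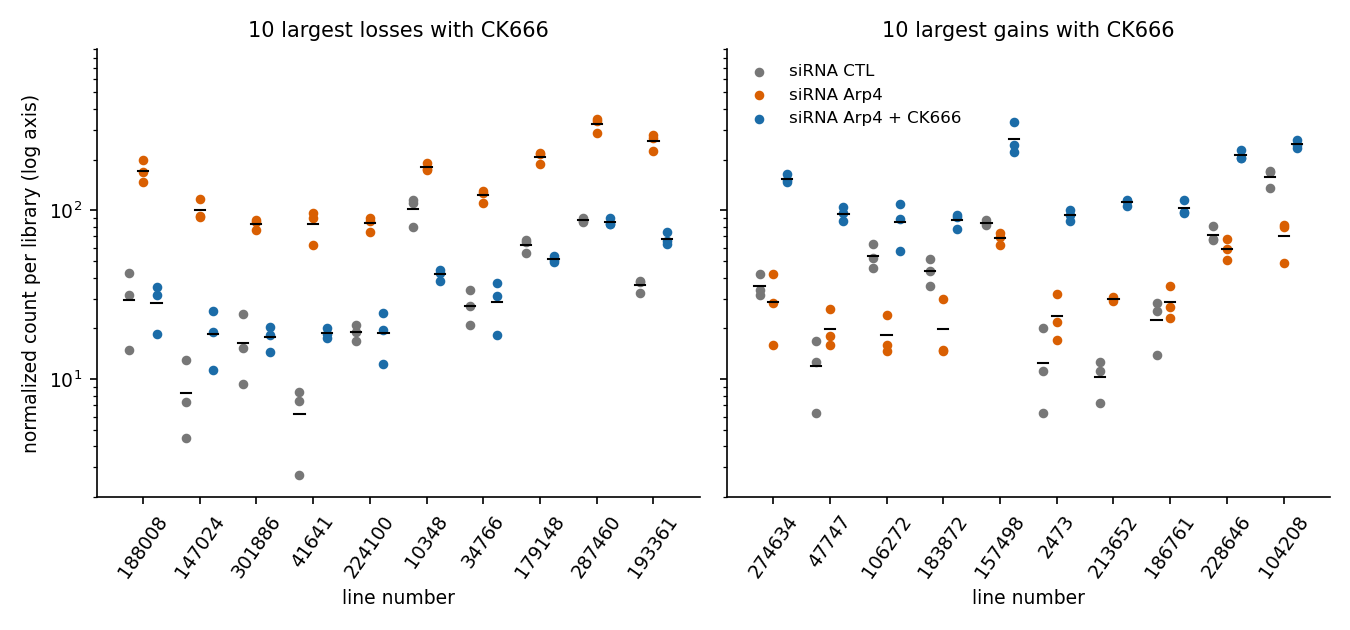
Normalized counts of each library (points, log axis) and group means (bars) in the 10 lines with the largest losses and the 10 with the largest gains with CK666 among called lines with a mean of at least 50 counts. In the losses the siRNA Arp4 points stand alone on top in every line, and in the gains the siRNA Arp4 plus CK666 points reach highest, as in line 274634 with 147 to 164 against 16.0 to 41.8.

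At low counts the fitted changes were larger and less certain. In line 150138 the siRNA Arp4 libraries were at 0 in all 3, while the CK666 libraries held 12.4, 11.7 and 9.55 counts and the siCTL libraries 4.66, 21.0 and 4.51. With the floor of 3 counts over the group that a count of 0 allows, it was at least 10.5-fold higher with CK666, for counting error only. Line 943 had 1 count over the 3 siRNA Arp4 libraries and 38 over the CK666 libraries before normalization, a ratio of 35.2 after scaling with a 95% counting interval of 5.95 to 1427. Both lost their call under alternatives that left out a library. All 3 siRNA Arp4 libraries were at 0 in 73 lines, of which 6 were tested, all 3 CK666 libraries in 24 lines and all 3 siCTL libraries in 6, of which 0 were tested.

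Losses at low counts included line 46038, with 28.0, 13.9 and 24.5 counts in siRNA Arp4 and 2.06, 1.95 and 2.86 with CK666. Its siCTL libraries held 17.7, 9.47 and 10.8, all above the CK666 libraries and overlapping siRNA Arp4, and its log2 fold change with CK666 was -3.20 ± 0.63 (SE). Line 123946 held 63.4, 69.5 and 64.9 counts in siCTL, 40.0, 35.8 and 29.4 with siRNA Arp4 and 8.24, 5.84 and 2.86 with CK666, with no overlap between the groups. Its knockdown log2 fold change of -0.90 was not called, and that with CK666 was -2.63 ± 0.40 (SE). Line 140266 was the only called gain where siCTL averaged under 5 counts. Its siCTL libraries were at 6.53, 6.31 and 1.80, siRNA Arp4 at 51.0, 61.7 and 42.8 and CK666 at 127, 96.4 and 123. The call was lost without siRNA Arp4 replicate 3 and without siRNA Arp4 plus CK666 replicate 1 or 3.

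Bin medians of the change with CK666 lay near 0 after TMM, which centres the lines, while single lines spread widely. By the mean siCTL count the median log2 fold change was 0.13 in the 44203 lines at 5 to 10, 0.09 in the 85971 lines at 10 to 20, -0.01 in the 44050 lines at 20 to 50, -0.08 in the 13772 lines at 50 to 100 and -0.10 in the 14850 lines at 100 and above. The 10th and 90th percentiles of single lines were -0.74 and 1.04 at 5 to 10, -0.67 and 0.89 at 10 to 20 and -0.44 and 0.24 at 100 and above. The knockdown medians were -0.33 at 10 to 20, -0.15 at 20 to 50, 0.16 at 50 to 100 and 0.19 at 100 and above. Only 44203 of the 109715 lines at 5 to 10 and 2327 of the 27282 lines under 5 were tested, many of which passed the filter through a higher count in another group. Their medians, 0.13 and 0.12 with CK666 and 0.15 and 1.25 on knockdown, are therefore no measure of those levels, and over all lines at 5 to 10 the mean count was 7.38 in siRNA Arp4 against 7.55 in siCTL.

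The slope of these medians depended on the scaling and lay close to the replicate spread. With the trend against level removed the medians from 10 to 20 counts upward were all within 0.02 of 0, by the construction of that scaling. Without a filter the mean count of the 14850 lines at 100 and above was 377, 359.6 and 346 in the siRNA Arp4 libraries and 355, 336 and 326 in the siRNA Arp4 plus CK666 libraries, and the groups overlapped. In the 109715 lines at 5 to 10 the siRNA Arp4 libraries had means of 6.92, 7.30 and 7.91 and the CK666 libraries 7.67, 8.06 and 8.30, again with overlap. At 10 to 20 counts the medians of the tested lines were at most 11.0 in the siRNA Arp4 libraries and at least 11.3 in the CK666 libraries. Such medians are scaled whole counts and move in steps wider than this gap. The means over all lines of that bin overlapped, at 11.85 to 12.59 with siRNA Arp4 and 12.39 to 12.87 with CK666. On the mean counts of all lines without a filter, an exact two-sided permutation test of 3 against 3 libraries gave p = 0.2 in each of the bins from 5 counts upward and p = 0.3 under 5. The smallest p that this design allows is 0.1, so these values do not show that the groups were equal.

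**Figure D4:**
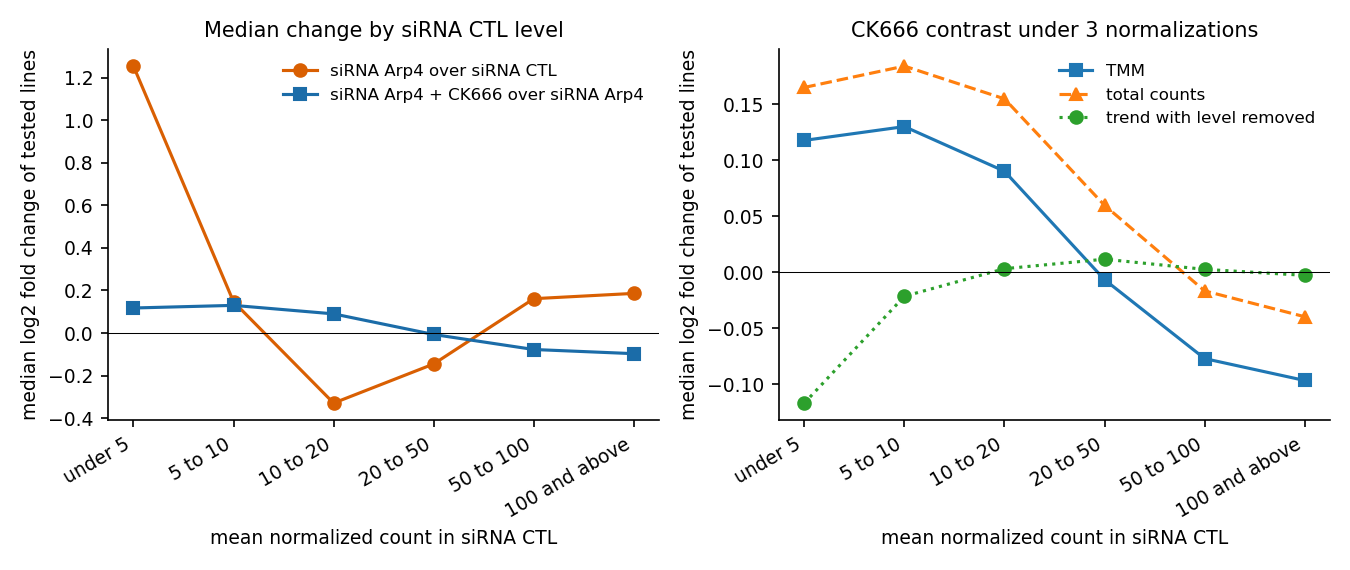
Median log2 fold change of tested lines by the mean siCTL count, for knockdown and CK666 (left) and for CK666 under 3 scalings (right, with its own vertical scale). With TMM the CK666 medians run from 0.13 at 5 to 10 counts to -0.10 at 100 and above, while removal of the trend with level brings those from 10 counts upward to near 0, and the bins under 10 counts hold only the lines that passed the filter.

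The share of all counts that fell in the lines most open in siCTL was compared between libraries. The 30593 lines (10%) with the highest siCTL counts took 67.1%, 65.6% and 64.0% of the counts of the siRNA Arp4 libraries, 65.0%, 63.3% and 62.4% of the siRNA Arp4 plus CK666 libraries and 62.1%, 63.2% and 60.0% of the siCTL libraries. The mean was 1.99 percentage points lower with CK666 than without it, and the ranges of the groups overlapped (exact two-sided permutation p = 0.2). This difference, CK666 minus siRNA Arp4 alone, was -1.24 points without siRNA Arp4 replicate 1 and -2.76 points without siRNA Arp4 replicate 3. The 3059 lines (1%) highest in siCTL took 24.232% to 24.969% of the counts with siRNA Arp4 and 23.144% to 24.228% with CK666, with no overlap (p = 0.1 in the same exact test, the smallest possible). These lines were chosen in siCTL, whose own shares are therefore not comparable. The 95% Wilson interval of each share reached at most 0.033 percentage points to either side, which covers counting error only and is far less than the spread between replicates.

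Of the 10434 lines gained on knockdown, CK666 reversed 465 (4.46%), that is, gave a called loss, extended 24 (0.230%) with a further called gain and left 7113 (68.2%), where the 95% interval of the change with CK666 lay within 1 of 0 on the log2 scale. The other 2832 (27.1%) were unresolved, since their interval reached past 1 or -1 without a call. Their median log2 fold change with CK666 was -0.68 (quartiles -0.86 and -0.49), and their interval reached a median of 0.60 to either side. Most of them thus had a fitted fall short of a call and were not centred on 0. Over all tested lines 0.364% were called losses and 0.181% called gains with CK666. The siRNA Arp4 libraries stand on opposite sides of both contrasts, which alone favours reversal over extension, and no test of the one against the other was made.

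Where siCTL was under 10 counts, most knockdown gains could not be resolved. At 5 to 10 siCTL counts CK666 reversed 23 of 908 gains, extended 2 and left 280, and 603 were unresolved. The largest reversed shares were in the middle, with 119 of 2275 (5.23%) at 10 to 20 counts and 226 of 3863 (5.85%) at 20 to 50. At 50 to 100 counts 74 of 1868 (3.96%) were reversed and 1618 left, and at 100 and above 22 of 1328 (1.66%) were reversed, 0 extended and 1263 (95.1%) left. The median change with CK666 over all knockdown gains was -0.24 on the log2 scale and ran from -0.39 at 5 to 10 counts to -0.13 at 100 and above. Over all knockdown losses it was 0.34, and it ran from 1.77 at 10 to 20 counts to 0.05 at 100 and above. The siRNA Arp4 libraries enter both contrasts, which alone favours such opposite signs, so these medians are a description. Under 10 siCTL counts they and the shares also cover only lines that passed the filter. The number of gains left fell to 4460 when the trend with level was removed, where 7364 lines were gained on knockdown.

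By definition the 465 reversed gains rose on knockdown and fell with CK666 by more than 1 on the log2 scale. The siRNA Arp4 libraries enter both calls, so a return towards siCTL is a description of this class. The median count of the reversed gains was 27.0 to 29.5 in the siCTL libraries, 94.3 to 105 in the siRNA Arp4 libraries and 42.0 to 44.8 with CK666 added. The median log2 fold change was 1.80 on knockdown, -1.26 with CK666 and 0.51 for both over siCTL. In the 7113 gains left the library medians were 37.9 to 41.0, 110.2 to 124 and 105 to 113 in that order. The 24 extended gains had library medians of 18.5 to 22.1 in siCTL, 50.8 to 61.5 with siRNA Arp4 and 124 to 132 with CK666.

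Of the 3160 lines lost on knockdown, CK666 reversed 54 (1.71%), extended 7 (0.222%) and left 1161 (36.7%), and 1938 (61.3%) were unresolved. Lost lines had few counts left, which widened their intervals, and at 20 to 50 siCTL counts 1184 of 1371 were unresolved, 178 left and 9 reversed. Over all unresolved losses the median log2 fold change with CK666 was 0.63, and the interval reached a median of 0.88 to either side. At 100 and above CK666 reversed 18 of 587 (3.07%), extended 5 and left 465 (79.2%). The 54 reversed losses had library medians of 73.7 to 75.2 counts in siCTL, 24.5 to 27.3 with siRNA Arp4 and 59.2 to 69.6 with CK666. The number reversed ran from 28 of 2795 knockdown losses, without siRNA Arp4 plus CK666 replicate 2, to 93 of 5649 with total counts. It was 34 or 35 without siCTL replicate 1 or 2 or CK666 replicate 1 or 3. Those left ranged from 706 of 2360 without siRNA Arp4 replicate 2 to 2362 of 4237 with the trend removed. The number of knockdown losses thus moved between settings as well.

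**Figure D5:**
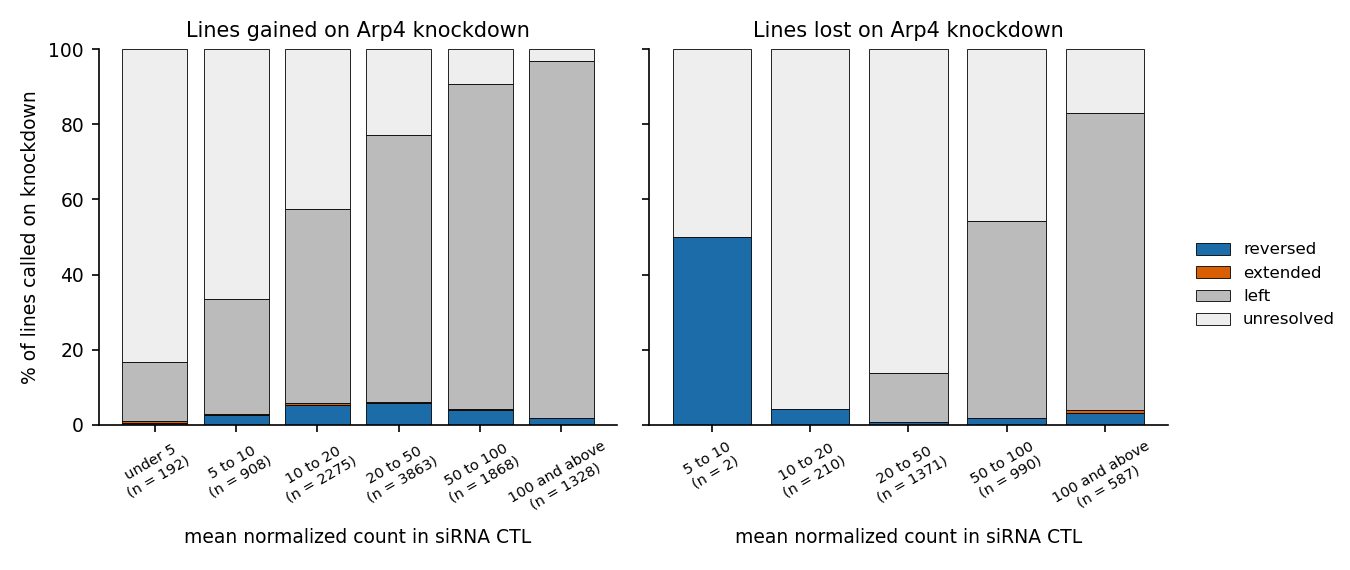
Share of the lines called on knockdown (left gains, right losses) that CK666 reversed, extended or left or that stayed unresolved, by the mean siCTL count, with the number of lines under each bar. The part left rises with the siCTL count, to 95.1% of gains and 79.2% of losses at 100 and above, and the bar at 5 to 10 counts on the right holds 2 lines only.

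How small a change could be seen depended on the level of the line. The 95% interval of the change with CK666 reached a median of 1.32 to either side on the log2 scale at 5 to 10 siCTL counts, 0.70 at 20 to 50 and 0.25 at 100 and above. It lay within 1 of 0 in 1.33%, 47.8% and 95.8% of the tested lines of these bins. At 10 to 20 counts the median reach was 1.09, so in most lines at 5 to 20 counts a 2-fold change was smaller than this reach. These intervals are not adjusted for the number of lines. Calls needed an adjusted p under 0.01, which is stricter, so a 2-fold change could go uncalled at higher counts too.

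In untransfected MSCs of the same table CK666 for 24 h gave 5641 gains (1.88%) and 3184 losses (1.06%) among 300323 tested lines, in a separate fit. The biological coefficient of variation was 0.182 there and 0.245 in the siRNA libraries, and 0.262 and 0.238 within siRNA Arp4 without and with CK666. The libraries of these untransfected groups held 14122298 to 22352180 counts, more than any siRNA library. The siRNA lines cannot be matched to those regions, the depth, the spread and the untreated state differed, and the difference between these counts was not tested.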

How the data were processed

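The authors aligned paired-end reads with bowtie2 in the PEPATAC pipeline, called peaks with MACS2, merged replicate peaks into consensus regions and deposited raw read counts per region and library, per the file headers without normalization. The genome build in the submitters' processing notes is mm10, while read filters and tool versions are not given there or in the methods. The table of 4 h libraries was not used.

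Groups came from the sample labels. The members, bins and lists were chosen with earlier results of these data known. The 9 siRNA libraries were fitted together with edgeR 4.0.16 (R 4.3.3, limma 3.58.1), with its default filter, TMM normalization and the quasi-likelihood test with Benjamini-Hochberg adjustment over all tested lines. Calls needed an adjusted p below 0.01 together with a log2 fold change above 1 or below -1. TMM takes most lines as unchanged, so a change at most regions would be scaled away. Principal components used DESeq2 1.42.0 (variance stabilizing transformation, 1000 most variable lines), and DESeq2 with default parameters was an alternative test. Tables used Python 3.11.15, numpy 2.4.6, pandas 2.3.3 and scipy 1.17.1, and figures matplotlib 3.10.9. The code was tested on simulated data.

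Named lines were the 10 largest gains and losses among called lines with non-overlapping groups and a mean of at least 50 normalized counts in the 6 libraries, plus the largest gain and loss in each siCTL bin with no minimum, 28 lines in all.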

Additional observations from a re-analysis of the deposited data

How the results depend on the processing

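Without a limit on the fold change 875 gains and 2130 losses were called with CK666, 16391 gains on knockdown, and 14005 gains and 5305 losses for both treatments against siCTL. An adjusted p under 0.05 gave 736 gains with CK666, 5975 losses on knockdown and 5114 losses for both. A mean of at least 50 counts left 31843 lines, and the scaling was fitted anew on them. This setting gave 295 losses with CK666. On knockdown there were 3580 gains and 1994 losses, and for both treatments 3677 gains and 2014 losses. Knockdown losses numbered 5649 with total counts and 2060 with DESeq2. With 1 library omitted at a time there were 214 to 326 gains with CK666 and 1951 to 2795 knockdown losses. DESeq2 gave 250 gains and 835 losses with CK666, and a fit of those 2 groups alone gave 438 and 795.

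With the trend against level removed, the median log2 fold changes with CK666 were -0.12 under 5 siCTL counts, -0.022 at 5 to 10, 0.0031 at 10 to 20, 0.0025 at 50 to 100 and -0.0028 at 100 and above. Total counts gave 0.15 at 10 to 20, 0.060 at 20 to 50 and -0.017 at 50 to 100. A mean of at least 50 counts gave -0.075 at 10 to 20, 0.018 at 50 to 100 and 0.0011 at 100 and above. The span between the highest and the lowest median was 0.093 there, over the bins from 10 to 20 upward only, the lowest with 190 lines. In the main fit it was 0.23 over all bins, with the highest median at 5 to 10, so the 2 spans cover unlike bins. At 20 to 50 counts the median was -0.049 without a filter and -0.059 with DESeq2. With each library left out it ran from -0.046 to -0.022 at 20 to 50 counts from -0.14 to -0.070 at 50 to 100, from 0.037 to 0.20 under 5, from 0.066 to 0.21 at 5 to 10, from 0.038 to 0.093 at 10 to 20 and from -0.16 to -0.080 at 100 and above, and the span ran from 0.16 to 0.37. The span was chosen after the data were seen.

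Knockdown losses reversed by CK666 numbered 93 of 5649 with total counts, 86 of 4237 with the trend removed and 29 of 2060 with DESeq2. With a library left out they numbered 28 to 61, where knockdown losses themselves ran from 1951 to 2795. Those extended numbered 11 with total counts, 12 with the trend removed and 3 to 7 with a library left out. Those left numbered 1988, 2362 and 754 with total counts, the trend removed and DESeq2, and 706 to 984 with a library left out, while the knockdown gains left numbered 4460 with the trend removed. On log2 CPM the distances between group means were 26.3 between siRNA Arp4 with and without CK666, 77.7 from siRNA Arp4 to siCTL and 72.1 from both treatments to siCTL. With a library left out the latter distances ran from 66.5 to 74.0 and from 60.7 to 67.4. The cause of these moves was not tested. For the 1% of lines highest in siCTL the share of counts was 0.961 percentage points lower with CK666 (exact permutation p = 0.1, the smallest possible).

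Libraries of the same replicate number did not deviate together (correlations of -0.01 to 0.03 across lines, against -0.03 to 0.03 for other numbers), and 3 of 9 libraries correlated best with their own number. The replicate block gave 364 gains and 735 losses with CK666 and 457 reversed knockdown gains, and of the 28 named lines it ended the call of line 943 only. Over 457 alternative fits of named lines 0 changed direction and 20 lost the call. The calls were lost in lines 943, 113344, 140266 and 150138. None of these lines was among the 20 largest changes at a mean of at least 50 counts. Alternatives with no result for a line were not counted. DESeq2 gave none for lines 943, 46038, 150138 and 270206, and the fit of the 2 groups alone none for 943 and 150138. The limit of 50 counts gave none for several named lines, such as 47747. Most knockdown gains under 10 siCTL counts and most knockdown losses at 10 to 50 were unresolved. Whether this came from depth was not tested.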
